A study of Mus musculus with 5 samples.

Results

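The oxidative phosphorylation genes of mouse kidney cells were followed through marker-gated cell classes and through the 5 sequencing libraries of the series. Members were chosen by symbol alone: every gene whose symbol starts with mt-, Ndufa, Ndufb, Ndufc, Ndufs, Ndufv, Uqcr, Cox4i, Cox5, Cox6, Cox7, Cox8 or Atp5, together with Sdha, Sdhb, Sdhc and Sdhd, with pseudogene rows left out. This gave 106 of the 32285 genes in the count matrix, 13 encoded by mitochondrial DNA and 93 encoded in the nucleus. The study compared kidneys of sham-operated male C57BL/6J mice (young adults) with kidneys taken 1, 3, 14 and 28 days after unilateral ischemia-reperfusion (UIR), in which the left renal pedicle was clamped and the right kidney stayed intact. GEO lists 1 sample for each of these 5 conditions, and the protocol names 3 mice to a kidney sample. The methods of the study describe separate matrices of UIR and control samples that were merged as data, and how those relate to the deposited libraries is not given in the sources used here. The deposited matrix tells its libraries apart only by a barcode suffix, 1 to 5, and no label ties a suffix to sham or to a day, so the 5 libraries were analysed as 1 pooled sample. Values are therefore given per library and with no test, no error over replicates and no comparison of conditions.

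Oxidative phosphorylation transfers electrons from reduced cofactors to oxygen through complexes I to IV of the inner mitochondrial membrane, and complex V (ATP synthase) uses the proton gradient built on the way to make ATP. Complexes I, III, IV and V hold subunits of both genomes, whereas complex II, which is also an enzyme of the citric acid cycle, is encoded in the nucleus alone. Proximal tubule, thick ascending limb, distal convoluted tubule and intercalated cells spend large amounts of ATP on transport and are rich in mitochondria, while podocytes and many immune cells draw more on glycolysis.

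Of the 93 nuclear members, 36 are complex I subunits, 8 complex I assembly factors (Ndufaf genes, which the rule includes although they are not subunits), 4 complex II, 8 complex III, 20 complex IV and 17 complex V. The mitochondrial members are mt-Nd1 to mt-Nd6 and mt-Nd4l of complex I, mt-Cytb of complex III, mt-Co1 to mt-Co3 of complex IV and mt-Atp6 and mt-Atp8 of complex V. Promoters of nuclear members were searched because most of these genes were lower together in several classes, as described below, and 76 of the 93 matched an entry of the RefSeq promoter table (GRCm38.p6). In the 250 bases before the start, on both strands, the letters of the NRF1 element (GCGCA and GCGC with any base between them) were found for 14 of the 76 members (18.4%) and for 4.23% of 27025 genes. The ETS letters CCGGAAGT were found for 3 members (3.95%, against 3.23% of genes), the estrogen-related receptor (ERR) letters TNAAGGTCA for 2 (2.63% against 1.3%) and the YY1 letters AANATGGCG for 3 (3.95% against 1.29%). At least one of the 4 was found for 20 members (26.3%, against 9.43% of genes). A match says only that the letters are there. The 250 bases before the start are shown for 4 members that the results return to: Ndufb4, a complex I subunit with 3 NRF1 and 1 ERR match, and Atp5h, a complex V subunit with an NRF1 and an ETS match, both found throughout the classes, and the pair Cox7a1 (the muscle-type isoform) and Cox7a2 (the common isoform) of complex IV, in which none of the 4 was found and whose levels differed between classes. The regions are chr16:37654369-37654618 (minus strand) for Ndufb4, chr11:115419920-115420169 (minus strand) for Atp5h, chr7:30183921-30184170 (plus strand) for Cox7a1 and chr9:79759854-79760103 (minus strand) for Cox7a2. Capitals mark the matches.
Ndufb4: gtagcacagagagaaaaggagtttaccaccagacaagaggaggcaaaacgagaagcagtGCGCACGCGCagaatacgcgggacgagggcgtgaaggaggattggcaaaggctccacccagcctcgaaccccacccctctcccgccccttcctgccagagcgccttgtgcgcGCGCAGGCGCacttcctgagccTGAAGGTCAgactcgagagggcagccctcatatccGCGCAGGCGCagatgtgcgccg
Atp5h: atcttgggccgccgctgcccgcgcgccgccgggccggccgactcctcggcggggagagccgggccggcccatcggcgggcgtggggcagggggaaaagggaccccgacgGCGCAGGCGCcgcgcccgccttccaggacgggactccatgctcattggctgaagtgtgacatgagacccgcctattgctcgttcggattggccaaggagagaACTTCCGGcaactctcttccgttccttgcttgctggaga
Cox7a1: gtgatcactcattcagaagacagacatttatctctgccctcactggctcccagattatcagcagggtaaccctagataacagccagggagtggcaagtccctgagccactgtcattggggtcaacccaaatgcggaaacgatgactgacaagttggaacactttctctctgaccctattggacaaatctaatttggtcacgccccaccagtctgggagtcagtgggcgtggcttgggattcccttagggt
Cox7a2: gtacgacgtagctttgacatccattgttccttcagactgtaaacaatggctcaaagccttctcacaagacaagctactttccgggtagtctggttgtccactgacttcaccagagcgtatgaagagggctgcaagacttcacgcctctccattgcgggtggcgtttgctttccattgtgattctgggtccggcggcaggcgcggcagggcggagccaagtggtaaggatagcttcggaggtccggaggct

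Droplets were called as cells in each library, and 57759 cells passed the filters with a median of 4603 unique molecular identifiers (UMIs) and 1693 genes. Libraries 1 to 5 held 8302 to 19043 cells each and 354 barcodes were seen in more than 1 library. The members took 53440255 of 319798936 UMIs in these cells (16.7%). The mitochondrial part took 11.6% of all UMIs, and the nuclear part took 5.74% of the UMIs on nuclear genes, the denominator used for it throughout so that the mitochondrial part cannot move it. The mitochondrial part is a share of all UMIs, nuclear members included. Cells were sorted into 14 classes by kidney and immune markers that include no member. The labels call the cells goblet cells, but 7 goblet markers held 177 UMIs in all and no cell had 3 of them, so this label was not used. Droplets too shallow to be cells carried free RNA with 63.3%, 35.2%, 15.6%, 11.9% and 12.1% mitochondrial UMIs in libraries 1 to 5, and the nuclear part of this free RNA was 5.71% to 10.7%.

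Proximal tubule cells, the largest class with 44436 cells, had 12.4% of their UMIs on mitochondrial members (exact 95% interval 12.426% to 12.434%) and 6.07% of nuclear UMIs on nuclear members (6.0632% to 6.0694%). Intervals here and below cover counting error only and are far narrower than the spread between libraries. The distal convoluted tubule, the segment of thiazide-sensitive sodium reabsorption, was higher in both parts at 14.5% and 9.28%, and the acid-base regulating intercalated cells followed with 13.5% and 7.24%. The thick ascending limb lay beside the proximal tubule with 12.0% and 6.43%. Principal cells of the collecting duct had 9.17% and 5.58%, and podocytes, the filter cells of the glomerulus, had 4.71% and 3.53%. Of the 104 podocytes 61 were in library 2, and without it these were 7.89% and 4.09%. Endothelial cells (4.55% and 2.2%), fibroblasts and pericytes (6.56% and 2.76%) and the 5 immune classes (4.14% to 8.59% and 2.04% to 2.88%) had the lowest nuclear parts. The order of the nuclear part thus ran from distal convoluted tubule to dendritic cells (2.04%), but several neighbours in it overlapped in their library values, some tubular ones among them. In library 3 the distal convoluted tubule (5.87%) was level with the proximal tubule (5.88%) and intercalated cells (5.94%), and the thick ascending limb ran from 5.03% to 9.38%. Proximal tubule markers took 4.48% of all UMIs in proximal tubule cells and 0.129% to 1.08% in the other classes, and 1.4% to 3.18% in free RNA. If all of these UMIs outside the tubule came from free RNA, free RNA made up 13.12% to 41.5% of all UMIs of neutrophils in libraries 1 to 4, 5.655% to 29.65% of those of T/NK cells, 6.713% to 15.76% of those of monocytes/macrophages, 6.056% to 14.66% of those of endothelial cells in libraries 1 to 3 and 20.91% of those of podocytes in library 2. In neutrophils of library 3 that would be 3.298 percentage points of a nuclear part of 3.5%, and in library 1 the estimate for the mitochondrial part (20.94%) was above the measured 11.1%. It was also above the measured mitochondrial part in neutrophils (4.615% against 3.941%) and podocytes (7.357% against 3.231%) of library 2. The same held in monocytes/macrophages (8.341% against 5.294%) and principal cells (12.0% against 11.62%) of library 1. In the thick ascending limb of library 1 the estimate was 11.72% against a measured 12.28%.

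**Figure D1:**
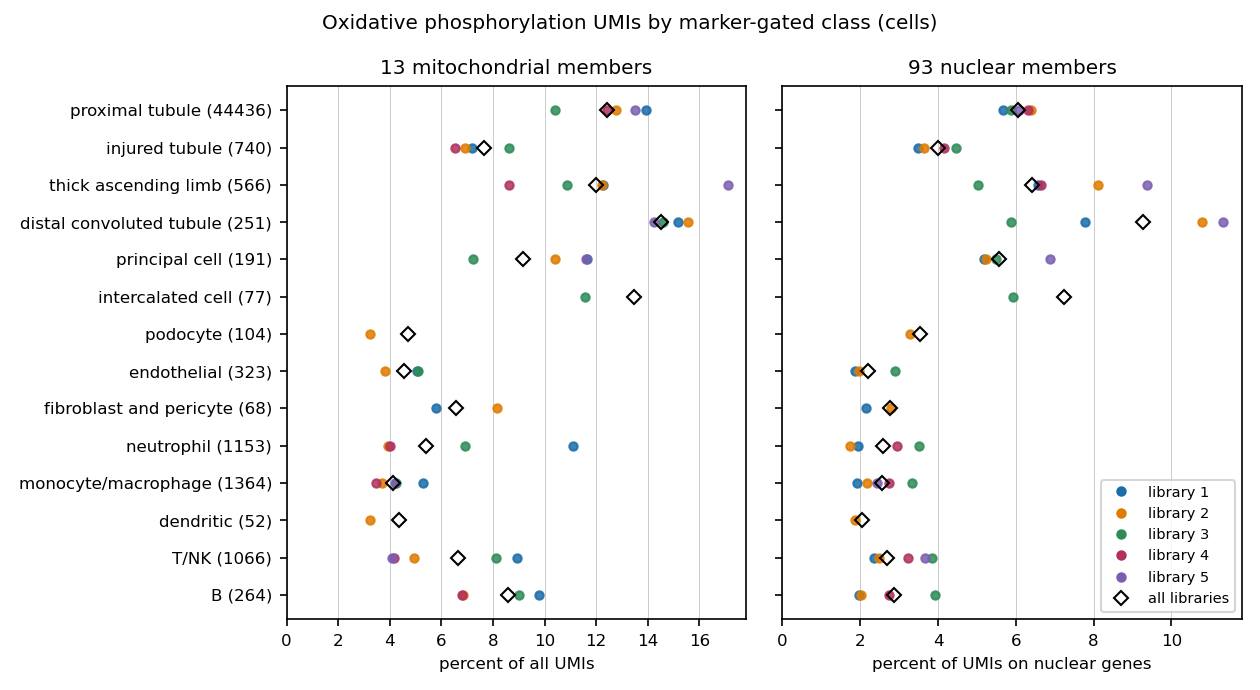
Share of UMIs on mitochondrial members (left, percent of all UMIs) and on nuclear members (right, percent of UMIs on nuclear genes) in 14 marker-gated classes, with the number of cells in brackets; coloured points are libraries with at least 20 cells of the class and open diamonds are all libraries together. The distal convoluted tubule lies highest in the nuclear part at 9.28%, with its libraries between 5.87% and 11.3%, and the immune, endothelial and stromal classes lie lowest.

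The 2 parts did not keep a fixed ratio. There were 2.34 mitochondrial UMIs for each nuclear member UMI in proximal tubule cells, 1.40 in podocytes (2.09 without library 2), 1.69 in monocytes/macrophages and 3.27 in B cells. The ratio also varied with the library within a class. Neutrophils had 6.45, 2.37, 2.13 and 1.42 in libraries 1 to 4, T/NK cells had 4.18, 2.08, 2.3, 1.34 and 1.16 in libraries 1 to 5, and proximal tubule cells had 2.85, 2.28, 1.98, 2.24 and 2.56. In each of these 3 classes library 1 was highest, and library 1 was also the library with the most mitochondrial free RNA, whose part in the ratio was not tested.

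Proximal tubule cells were sampled deeply in all 5 libraries (7295 to 12708 cells). Their mitochondrial part was 13.9%, 12.8%, 10.4%, 12.4% and 13.5% in libraries 1 to 5, and their nuclear part was 5.68%, 6.4%, 5.88%, 6.32% and 6.09%. Library 3 was lowest in the mitochondrial part and library 1 in the nuclear part. Among 88 nuclear members with at least 50 UMIs in every library, the highest library was a median of 1.37 times the lowest (1.52 for all nuclear genes), and 2 lay past 2-fold from the median library (8.69% of all nuclear genes did). Ndufaf6, an assembly factor, had 13.5 CPM (counts per 1e6 UMIs on nuclear genes) in library 1 and 47.2 to 55.6 CPM in the others. Cox6b2, the testis-type form of a complex IV subunit, had 11.3, 12.4, 29.5, 46.6 and 13.3 CPM in libraries 1 to 5, so that libraries 3 and 4 stood above the rest.

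All 13 mitochondrial members were detected. The 5 with the largest shares of mitochondrial UMIs in proximal tubule cells were mt-Atp6 (18.9%), mt-Co3 (18.2%), mt-Co2 (14.7%), mt-Cytb (14.0%) and mt-Co1 (9.36%), shares that also depend on where the 3′ assay primes on each transcript. mt-Nd4 (7.37%), mt-Nd2 (7.3%), mt-Nd1 (5.84%), mt-Nd3 (1.36%), mt-Nd4l (1.34%), mt-Nd5 (1.32%), mt-Atp8 (0.282%) and mt-Nd6 (0.0603%), the one member on the minus strand, made up the rest. The annotated ranges of mt-Atp8 and mt-Atp6, and of mt-Nd4l and mt-Nd4, overlap on chromosome M, so reads there may have been split or lost between them. Across classes mt-Co1, the catalytic subunit of complex IV, had the widest range of shares in percentage points. It took 16.0% of mitochondrial UMIs in the distal convoluted tubule, 15.05% in the thick ascending limb and 12.9% in principal cells, against 9.36% in the proximal tubule, 8.63% in fibroblasts and pericytes and 9.15% in neutrophils. In the distal convoluted tubule it was 22046, 20880, 26742 and 22477 CPM (here counts per 1e6 of all UMIs) in libraries 1, 2, 3 and 5, and in the proximal tubule 13571, 10383, 10894, 11517 and 12330 in libraries 1 to 5. The library values of the 2 classes did not overlap, and the pooled log2 ratio was 1.00. In library 1, 4 of the 13 mitochondrial members were 2-fold lower than the median library in proximal tubule cells (2.61% of all genes were). mt-Atp8 had 99.8 CPM of all UMIs in library 1 and 296 to 467 in the others, mt-Nd3 had 806 against 1471 to 2296, mt-Nd4l had 619 against 1448 to 2313, and mt-Nd6 had 24.8 against 68.1 to 97.6.

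The nuclear complexes were all lower in the endothelial, stromal and largest immune classes, and less uniform elsewhere. For 89 nuclear members with at least 50 UMIs in the proximal tubule and the class compared (90 for endothelial cells), the level in each class was set against the proximal tubule, and a member was counted as past 2-fold at a log2 ratio of at least 1 or at most −1. A gene with 0 UMIs in the class was counted as 2-fold lower even where its counts cannot bound it at 2-fold. The 93 members include 3 with under 50 UMIs in all cells, Cox8c (0), Cox8b (3) and Cox7b2 (8), which were named but not compared. In endothelial cells, fibroblasts and pericytes, neutrophils, monocytes/macrophages and T/NK cells, the summed log2 ratio of the nuclear members of each of complexes I to V lay between −1.68 and −0.94. Complex II was the lowest nuclear complex in each of these 5 classes. In tubular classes the complexes differed in sign or size. Nuclear complex II was −0.59 and complex V −0.01 in principal cells, and in the thick ascending limb mitochondrial complex I was −0.22 and nuclear complex V 0.21.

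**Figure D2:**
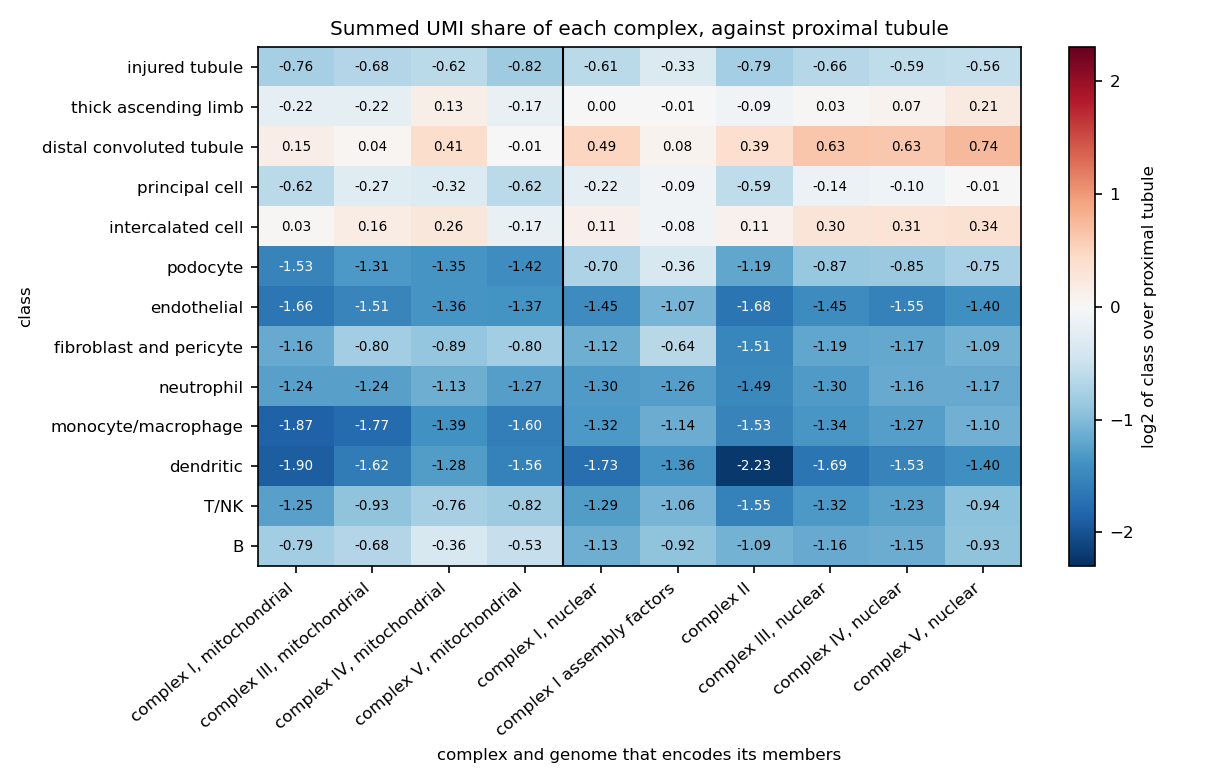
Log2 ratio of the summed UMI share of each complex in 13 classes over the proximal tubule, for mitochondrial members (left of the line, of all UMIs) and nuclear members (right, of UMIs on nuclear genes); blue is lower and red higher. Complex II in dendritic cells has the lowest value (−2.23), and nuclear complex V in the distal convoluted tubule the highest (0.74).

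The injured tubule was compared with the proximal tubule because the study is of ischemic kidney injury. Cells of sham and UIR kidneys were pooled in this comparison, since no library is tied to a condition. The injured gate took 740 cells whose best-scoring class was the injured tubule, from at least 3 of its 9 markers (among them Krt8, Krt18 and Sox4), and which also had a UMI of Havcr1 (kidney injury molecule 1) or Vcam1, at least 3 proximal tubule markers and fewer than 2 urothelial markers. Both parts were lower in these cells than in cells of the proximal tubule class. The mitochondrial part was 7.17%, 6.92%, 8.63% and 6.54% in libraries 1 to 4 (library 5 held fewer than 20 such cells), below the 10.4% to 13.9% of proximal tubule cells in every case. The nuclear part was 3.47%, 3.64%, 4.47% and 4.17%, against 5.68% to 6.4%. Within the libraries the log2 ratio of the nuclear part was −0.71, −0.81, −0.39 and −0.60, and that of the mitochondrial part −0.96, −0.88, −0.27 and −0.92, so that library 3, with 384 of the 740 cells, had the smallest differences. Pooled, the log2 ratios were −0.60 (−0.604 to −0.593) and −0.70 (−0.703 to −0.695). Proximal tubule markers took 1.08% of all UMIs in injured cells, against 4.48% in proximal tubule cells and 1.4% to 3.18% in free RNA. Median depth was 7455 UMIs in injured and 5151 in proximal tubule cells. Whether marker share or depth bears on the ratios was not tested, nor was the tubule segment that injured cells came from.

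The shift was broad and small for each gene. Of 89 nuclear members compared, 85 lay below 0 (37.8% of all genes did), 82 had intervals below 0 (20.5% of all genes) and 81 lay below 0 in each of the 4 libraries (21.3% of all genes). The median log2 ratio was −0.61, while that of all 14716 genes compared was 0.24. Only 3 members were 2-fold lower (11% of all genes were) and 0 were 2-fold higher (20.2% of all genes were), so at this threshold the members were not called more often than other genes in either direction. The 3 were Cox7a1, Cox6a2 and Ndufv3. The count was 11 without library 3 (12.1% of all genes were), 1 without library 2 (11.1%) and 10 with a stricter gate (13.1%), each near or under the share of all genes. At 1.5-fold 55 of the 89 members were lower (18.4% of all genes were). Medians were −0.61 for complex I subunits, −0.76 for complex II, −0.64 for complex III, −0.61 for complex IV, −0.58 for complex V and −0.28 for the assembly factors.

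Complex II members were all lower. Sdhb, the iron-sulfur subunit, had 590, 490, 410, 442 and 429 CPM in proximal tubule cells of libraries 1 to 5 and 254, 204, 271 and 240 CPM in injured cells of libraries 1 to 4. The 2 sets did not overlap, and the log2 ratio was −0.93 (−0.998 to −0.860). Sdhd (−0.85) and Sdhc (−0.67), the membrane anchors, and Sdha (−0.66), the flavoprotein that oxidizes succinate, followed. In complex I, Ndufv3, a small subunit of the NADH-oxidizing arm, had 382 to 508 CPM in the 5 libraries of proximal tubule cells and 215, 198, 224 and 208 CPM in injured cells (log2 −1.08), again without overlap. Ndufs1, the largest iron-sulfur subunit of the same arm, had 105 to 150 CPM against 72.8, 68.2, 64.6 and 76.5 CPM (log2 −0.98). Ndufb4 had 570, 791, 686, 686 and 746 CPM against 282, 382, 445 and 389 CPM (log2 −0.84), and Atp5h had 967 to 1082 CPM against 735, 714, 766 and 685 CPM (log2 −0.43). In both genes the injured cells lay below every library of proximal tubule cells.

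The 5 nuclear members with the most UMIs, Cox4i1, Cox8a, Ndufa4, Cox6c and Cox7c, all belong to complex IV. Cox4i1, the common form of subunit 4, had 2604, 2622, 2477, 2797 and 2499 CPM in proximal tubule cells and 1815, 1637, 1995 and 1992 CPM in injured cells (log2 −0.48). Ndufa4, once assigned to complex I, had 2021 to 2451 CPM against 1316, 1239, 1546 and 1437 CPM. Neither overlapped between the classes. The isoforms of subunit 7a were both lower: Cox7a2 had 1098 to 1409 CPM against 550, 677, 934 and 765 CPM (log2 −0.74), and Cox7a1 had 13.5, 26.1, 25.2, 40.9 and 27.2 CPM against 5.55, 7.33, 11.2 and 17.0 CPM, with a log2 ratio of −1.53 (−1.91 to −1.18) on 64 UMIs. For Cox7a1 the injured value in library 4 lay above the proximal tubule value in library 1, but within each of the 4 libraries injured cells were lower. Cox6a2 rested on 11 UMIs in injured cells, 10 of them in library 3 (log2 −1.40, −2.41 to −0.56).

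Of the 89 members, 2 were above 0 in each of the 4 libraries (32.3% of all genes were). Cox7a2l (also called Scaf1) had 241, 250, 248, 260 and 214 CPM in proximal tubule cells and 302, 308, 249 and 281 CPM in injured cells (log2 0.21, 0.147 to 0.277). Atp5g2, one of 3 genes for the c subunit of the ATP synthase ring, had 693, 608, 604, 556 and 533 CPM against 808, 624, 604 and 634 CPM (log2 0.14, 0.0954 to 0.181). In library 3 both were level with the proximal tubule (0.01 and 0.00). Ndufaf7 (0.09), Ndufaf2 (0.01) and Cox6b2 (−0.02) came next, each with an interval that includes 0. The pooled value of Cox6b2 joins libraries that differed in direction. Injured cells lay above the proximal tubule in libraries 1 and 2 (41 and 42 UMIs) and below it in libraries 3 and 4 (53 and 18 UMIs).

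**Figure D3:**
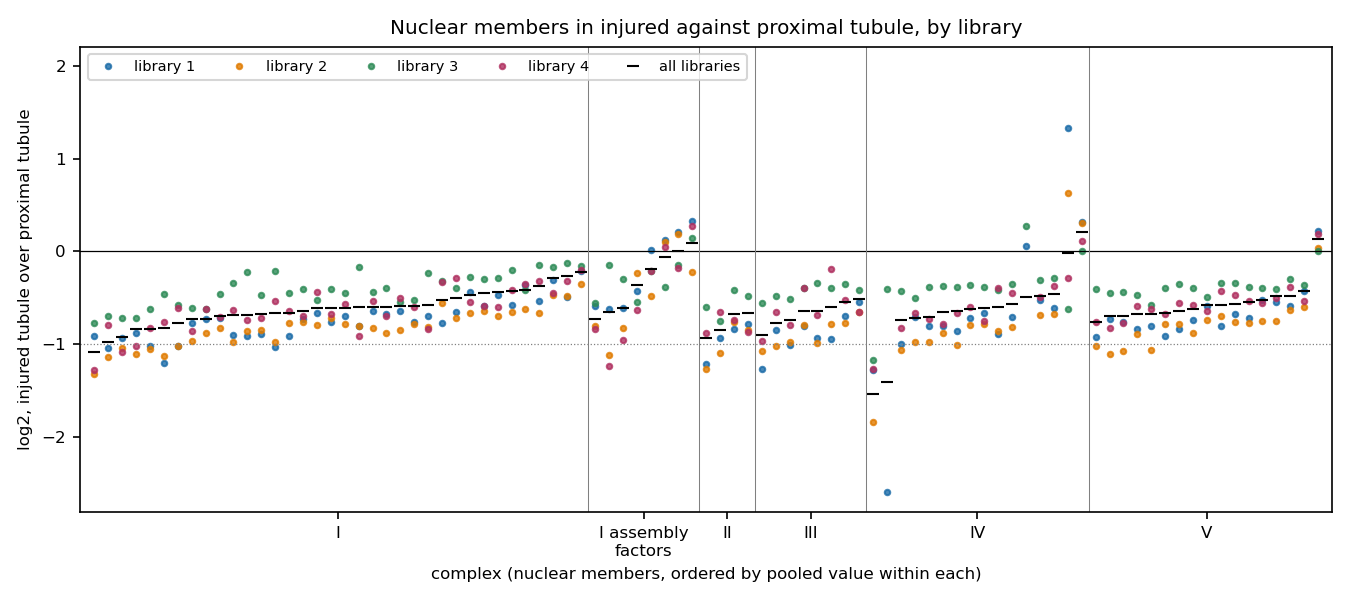
Log2 ratio of injured over proximal tubule for the 89 nuclear members compared, ordered within each complex; points are libraries 1 to 4 and dashes the pooled value, and the dotted line marks 2-fold lower (libraries with 0 UMIs, as for Cox6a2 in libraries 2 and 4, have no point). Of the 89 pooled values 85 lie below 0, and Cox7a2l and Atp5g2 are above 0.

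Other energy genes, from lists outside the rule, were set beside the members. Among 12 fatty acid oxidation genes 5 were 2-fold lower in injured cells (11% of all genes were), among them Acadm (687 to 250 CPM, log2 −1.46), Ehhadh (154 to 42.6, −1.85), Cpt2 (99.9 to 41.0, −1.28) and Etfb (1113 to 465, −1.26), enzymes of mitochondrial and peroxisomal β-oxidation and an electron carrier into the respiratory chain. The summed log2 ratio of that list was −1.08, against −0.63 for 12 citric acid cycle genes, of which 0 passed 2-fold. Among 14 glycolysis genes compared, 4 were 2-fold higher (20.2% of all genes were): Hk1 (1.66 to 28.7 CPM), Hk2 (0.503 to 35.9), Pfkp (9.38 to 54.4) and Pkm (11.6 to 170 CPM), while the list as a whole was level (−0.12). Esrra, a nuclear receptor that drives oxidative genes, was lower (50.6 to 21.8 CPM, log2 −1.21), and Ucp2, an inner membrane carrier, higher (70.6 to 166 CPM, 1.24). Of 9 cytochrome c and carrier genes compared, Ucp2 was the 1 that was 2-fold higher (20.2% of all genes were). The median of these 9 was −0.33. Ppargc1a, the coactivator of mitochondrial biogenesis, had a log2 ratio of −0.71. Esrra and Ppargc1a belong to a list of 13 genes of mitochondrial biogenesis with a median of −0.39. Esrra was the 1 gene of it that was 2-fold lower (11% of all genes were), and 0 were 2-fold higher (20.2% of all genes were). Polg (0.52), Nrf1 (0.42), Tfb1m (0.26) and Gabpa (0.17) lay above 0 and the others of the list below. Cytosolic ribosomal protein genes took 12.9% of nuclear UMIs in injured cells against 8.28%. Proximal tubule cells with at least 1 Havcr1 UMI that scored highest as proximal tubule (2961) had a nuclear part of 5.62%, 6.09%, 5.75%, 6.14% and 6.58% in libraries 1 to 5, and those without had 5.68%, 6.43%, 5.91%, 6.33% and 6.09%. Their mitochondrial part was 13.92%, 12.66%, 10.51%, 12.43% and 17.73% against 13.94%, 12.77%, 10.36%, 12.4% and 13.46%. In library 5, with 33 cells that had the UMI, both parts were higher with it, and in libraries 1 to 4 the nuclear part was lower and the mitochondrial part nearly level.

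In the distal convoluted tubule, 84 of 89 nuclear members lay above the proximal tubule (53.8% of all genes did), with a median log2 ratio of 0.52 (all genes 0.10). This class was picked for description after its values were seen. The nuclear part was 7.77%, 10.8%, 5.87% and 11.3% in libraries 1, 2, 3 and 5, and the ratio to proximal tubule cells of the same library was 0.45, 0.75, −0.00 and 0.90 on the log2 scale. Library 3 thus showed no difference, and library 5 held 141 of the 251 cells. Without library 5 the pooled log2 ratio was 0.28 and without library 3 it was 0.79, against 0.61 with all. In all, 7 members were 2-fold higher (20.9% of all genes were) and 3 were 2-fold lower (25.1% of all genes were). The 7 became 16 without library 3 (21.2% of all genes were), 4 without library 1 (19.9%) and 3 without library 5 (22.5%), and ranged from 2 (20.8%) to 13 (19.7%) under other cell filters and gates, each under the share of all genes. At 1.5-fold 38 of 89 were higher, above the share of all genes (32.1%). Ndufa1, a membrane-arm subunit of complex I, had 626, 1185, 755 and 1227 CPM in libraries 1, 2, 3 and 5 against 285 to 516 CPM in proximal tubule cells (log2 1.26), with no overlap. Cox7b had 1107, 2179, 832 and 2142 CPM against 571 to 847 CPM (log2 1.10), and Atp5e, the epsilon subunit of the ATP synthase, had 1521, 2533, 1577 and 2766 CPM against 828 to 1239 CPM (1.01), with overlap for Cox7b alone, in library 3. Atp5h had 1762, 2305, 1091 and 2467 CPM, up from 967 to 1082 CPM. The assembly factor Ndufaf5 (1.56) rested on 34 UMIs and Ndufa4l2 on 1. Of the 3 lower members, Ndufaf6 (−1.50) had 18 UMIs, Cox6b2 (−1.51) had 9, and Cox6a2 had 0, which allows no more than a bound of at least 1.55-fold lower (3 counts over the class). Ppargc1a was also higher here (log2 1.89), as it was in the thick ascending limb (1.48) and in intercalated cells (1.07), but the rest of its list of 13 genes of mitochondrial biogenesis did not follow. Ppargc1a was the 1 gene of the list that was 2-fold higher in each of these 3 classes (20.9%, 19.7% and 21.3% of all genes were). The medians of the list were −0.02, −0.27 and 0.09. Twnk, the mitochondrial DNA helicase, was 2-fold lower in the distal convoluted tubule (−1.16) and intercalated cells (−1.11), but on only 8 and 4 UMIs. Of all genes, 25.1% and 30.2% were 2-fold lower in these 2 classes.

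The thick ascending limb, which reabsorbs sodium chloride through Slc12a1, differed little from the proximal tubule. The median of 89 members was 0.04 (all genes 0.15), 3 were 2-fold lower (20% of all genes were) and 0 were 2-fold higher (19.7% of all genes were). The 3 were Ndufaf6 (64 UMIs, log2 −1.07), Cox6a2 with 1 UMI (0.34 CPM, 0.0086 to 1.89, against 4.17 CPM) and Ndufa4l2 with 0, which gives no fold because the proximal tubule level is under the level of 3 counts. Ndufv3 (−0.53) and Ndufa6 (−0.50) were the next lowest, and Ndufaf5 (0.83), Cox7a2l (0.75), Ndufaf7 (0.64), Atp5g2 (0.62) and Atp5h (0.48) the highest. The nuclear part was 6.56%, 8.11%, 5.03%, 6.65% and 9.38% in libraries 1 to 5, so that library 3 lay below the proximal tubule of its own library (−0.22) and library 5 above it (0.62). In intercalated cells the median was 0.22 (all genes −0.02), 2 members were 2-fold higher (21.3% of all genes were) and 3 were 2-fold lower (30.2% of all genes were). The 2 were Cox7a1 (2.203) and Cox7a2l (1.03), followed by Uqcrb (0.79), Atp5h (0.77) and Ndufa11 (0.73). The 3 were Ndufaf1 with 8 UMIs and Cox6a2 and Ndufa4l2 with 0 each, neither of which gives a fold, with Ndufaf6 (−0.72) and Ndufv3 (−0.71) next. Of the 77 intercalated cells 48 were in library 3, where the nuclear part equalled that of the proximal tubule (log2 0.02). The higher count was 12 without library 3 (22.4% of all genes were) and 1 without either library 2 (21.1%) or library 5 (20.9%), again under the share of all genes.

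Most nuclear members were lower in endothelial, stromal and immune cells. In endothelial cells 74 of 90 were 2-fold lower (28.2% of all genes were) and 2 were 2-fold higher (28.7% of all genes were), with a median of −1.51 against 0.14 for all genes. In fibroblasts and pericytes 64 of 89 were 2-fold lower (35.7% of all genes were) and 2 higher (25.2% of all genes were). In monocytes/macrophages the counts were 70 and 0 of 89 (38.3% of all genes were 2-fold lower and 18.4% 2-fold higher), in neutrophils 71 and 1 (50.4% and 16.5% of all genes) and in T/NK cells 68 and 0 (40% and 20.1% of all genes). Medians of members and of all genes were −1.28 and −0.54 in monocytes/macrophages, −1.39 and −1.02 in neutrophils, and −1.28 and −0.47 in T/NK cells. The share of members 2-fold lower exceeded that of all genes in each of these 5 classes with all libraries, but in neutrophils this depended on the cells used. There the count was 39 of 89 without library 2 (47.2% of all genes were) and 17 of 89 in the cells of the first calling step alone (58.2%), both under the share of all genes. In T/NK cells of that step it was 45 of 89 (48.5%), close to the share of all genes. In fibroblasts and pericytes the count ran from 43 to 70 with 1 library left out, against 64 with all libraries (35.7% of all genes). With free RNA subtracted by the estimate above, the log2 ratio of the nuclear part moved from −1.22 to −2.48 in neutrophils, from −1.18 to −1.42 in T/NK cells and from −1.25 to −1.52 in monocytes/macrophages, and 83 (56.8% of all genes), 76 (41.6%) and 76 (40.6%) members were 2-fold lower. In this subtraction counts that fell below 0 were set to 0, and the proximal tubule was left as measured. The higher count was 1 without library 1 in endothelial (27.4% of all genes) and in stromal cells (23.3%), 1 without library 5 in stromal cells (24.9%), and 3 without library 2 (27.3%) or 3 (30.5%) in endothelial cells, all far under the share of all genes. The 1 higher member of neutrophils, Ndufa4l2, had its 5 UMIs in library 3 and in 1 cell. Ribosomal protein genes took 29.3% of nuclear UMIs in T/NK cells, 18.5% in monocytes/macrophages and 16.5% in endothelial cells against 8.28% in the proximal tubule, and 6.23% in neutrophils. Their part in the lower shares was not tested.

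The members lowest in each class were not the same. In monocytes/macrophages Ndufaf6 (−2.47), Ndufa4 (−2.31), Ndufaf4 (−2.15), Ndufs1 (−1.95) and Ndufv1 (−1.93), the NADH-binding subunit, were lowest. Ndufa4 had 305, 226, 788, 559 and 713 CPM in monocytes/macrophages of libraries 1 to 5 against 2021 to 2451 CPM in the proximal tubule, and Sdhb had 202, 140, 192, 193 and 89.1 CPM against 410 to 590 CPM. In neutrophils the lowest were Cox6b2 (−3.11, 4 UMIs), Ndufa10 (−2.14), Ndufaf4 (−2.04), Cox7a1 (−1.998) and Ndufa9 (−1.99), and in T/NK cells, beside Ndufa4l2 with 0 UMIs, Ndufaf1 (−2.96), Cox6b2 (−2.92), Ndufaf6 (−2.59) and Cox7a1 (−2.54). In endothelial cells they were Cox6a2 with 0 UMIs (at least 2.26-fold lower), Cox7a1 (3 UMIs, −3.85, interval of its level 0.381 to 5.39 CPM), Ndufaf6 (6 UMIs, −3.63), Uqcr10 (−2.27) and Cox6b2 (−2.22). In fibroblasts and pericytes they were Cox7a1 with 0 UMIs (at least 2.57-fold lower), Cox6a2 with 0, Ndufaf1 (2 UMIs), Ndufa10 (−1.91) and Sdhb (−1.79). The nuclear part of monocytes/macrophages was 1.92%, 2.18%, 3.34%, 2.74% and 2.42% in libraries 1 to 5, that of neutrophils 1.94%, 1.73%, 3.5% and 2.94% in libraries 1 to 4, and that of T/NK cells 2.34%, 2.49%, 3.84%, 3.23% and 3.66%. As measured, libraries 1 and 2 were the lowest in all 3 classes, whereas in the proximal tubule libraries 1 and 3 were. The free RNA estimate would take 1.032, 0.505, 3.298 and 1.614 percentage points from neutrophils of libraries 1 to 4. From libraries 1 to 5 it would take 0.3857, 0.2995, 1.131, 0.489 and 1.547 points in monocytes/macrophages. In T/NK cells these were 0.3722, 0.22, 2.387, 0.7297 and 1.212. The library order without free RNA was not tested.

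At the other end, Cox7a2l and Atp5g2 stood apart from the other members in most classes. Cox7a2l was higher than in the proximal tubule in 12 of the 13 other classes, with log2 ratios from 0.21 in injured cells through 0.45 in monocytes/macrophages to 0.97 in endothelial cells, 0.98 in T/NK and dendritic cells and 1.03 in intercalated cells, and it was lower in neutrophils (−0.76). In monocytes/macrophages it had 326, 381, 267, 352 and 382 CPM in libraries 1 to 5 against 214 to 260 CPM in the proximal tubule, with no overlap. Atp5g2 had ratios of −0.17 in monocytes/macrophages, −0.29 in endothelial cells and 0.16 in T/NK cells, where the median member lay below −1.2, and was lower in neutrophils (−1.50). In monocytes/macrophages Ndufa4l2 (2 UMIs), Ndufaf5 (−0.40) and Atp5e (−0.42) followed. The highest in neutrophils after Ndufa4l2 were Ndufaf7 (−0.00), Ndufa7 (−0.34), Ndufb7 (−0.39) and Atp5e (−0.41), and those in T/NK cells after Cox7a2l and Atp5g2 were Atp5h (−0.17), Uqcrh (−0.25) and Ndufb7 (−0.38). In endothelial cells Ndufaf3 (−0.32) came after Atp5g2. In fibroblasts and pericytes Ndufaf5 (6 UMIs), Cox7a2l (0.35), Cox6b2 (6 UMIs) and Ndufaf2 (16 UMIs) came after Ndufa4l2.

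Complex IV has tissue isoforms that replace a common subunit, and these held the largest differences of all members. Cox4i2, which takes the place of Cox4i1 in oxygen-sensitive tissues such as lung and vascular smooth muscle, had 48 UMIs in endothelial cells (29.5 CPM, interval 21.8 to 39.1) and 12 in fibroblasts and pericytes (41.4 CPM, 21.4 to 72.3), against 21 in the proximal tubule (0.0918 CPM, 0.0568 to 0.14). By library the endothelial UMIs were 19, 12, 11, 4 and 2 and the stromal ones 1, 9, 0, 2 and 0, so that the stromal level was 15.2 CPM (3.15 to 44.6) without library 2 and 67.5 CPM without library 1, and the proximal tubule level was 0.0422 CPM without library 1. Ndufa4l2, the hypoxia-inducible counterpart of Ndufa4, had 86 UMIs in endothelial cells (52.9 CPM), 38 in fibroblasts and pericytes (131 CPM) and 92 in the far larger proximal tubule class (0.402 CPM). Its endothelial UMIs were 35, 18, 24, 2 and 7 by library. Both genes were thus present above the proximal tubule in stromal and endothelial gates of several libraries, while their common partners were lower there (Cox4i1 1007 and 1189 CPM, Ndufa4 598 and 841 CPM).

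**Figure D4:**
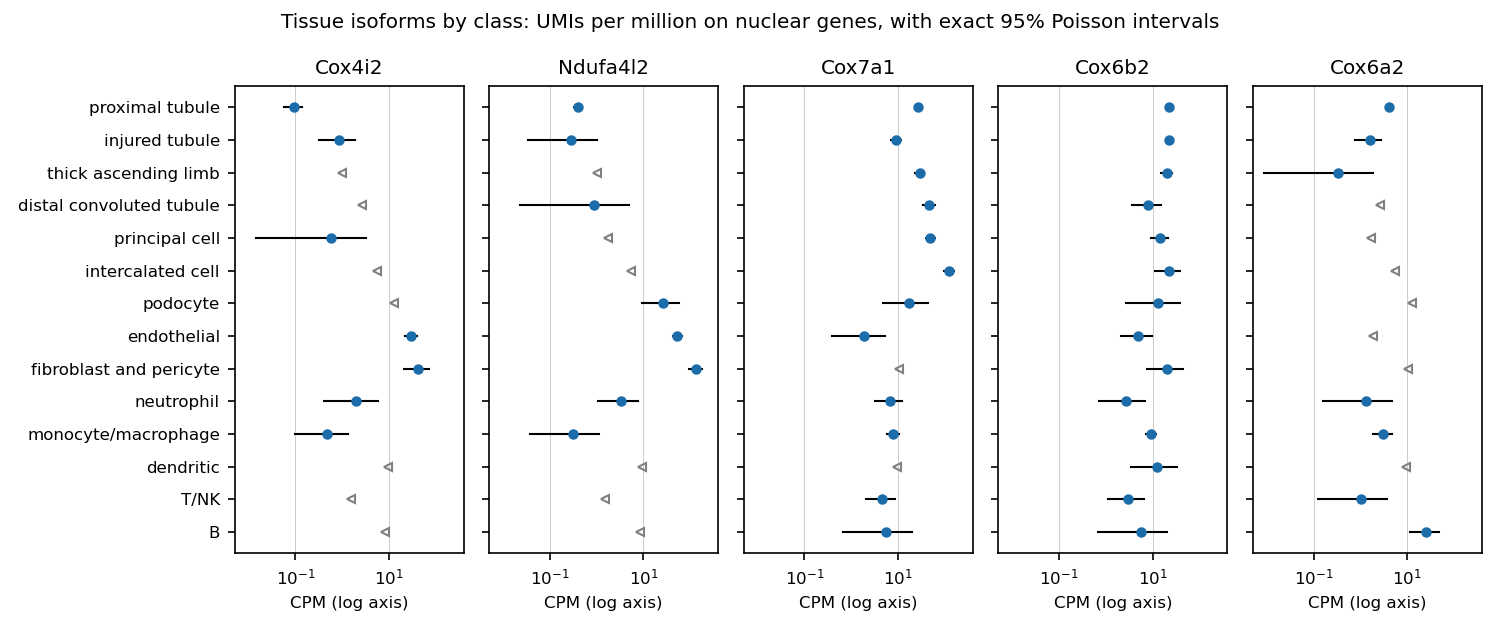
Levels of 5 isoform genes in 14 classes, in CPM of UMIs on nuclear genes on a log axis, with exact 95% Poisson intervals; grey triangles are classes with 0 UMIs, drawn at the level 3 UMIs would give. Cox4i2 and Ndufa4l2 lie highest in the endothelial and fibroblast and pericyte gates, Cox7a1 in intercalated cells at 122 CPM.

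In the endothelial gate most of these UMIs sat in cells with mural genes, a split made after the values were seen. Of 323 endothelial cells, 29 had a UMI of at least 2 of Rgs5, Pdgfrb and Notch3, genes of pericytes and vascular smooth muscle. These 29 cells held 46 of the 48 Cox4i2 UMIs and 73 of the 86 Ndufa4l2 UMIs, or 119 CPM (87.2 to 159) and 189 CPM (148 to 237). The other 294 endothelial cells had 2 and 13 UMIs, or 1.61 CPM (0.195 to 5.83) and 10.5 CPM (5.58 to 17.9). The 29 cells were also deeper per cell, with 386434 UMIs on nuclear genes against 1239653 in the other 294. Whether depth bears on the split was not tested. Among fibroblasts and pericytes, 20 cells with an Rgs5 but no Col1a1 UMI had 11 of the 12 Cox4i2 UMIs, and 39 with a Col1a1 but no Rgs5 UMI had 0. Ndufa4l2 had 17 UMIs in these 20 cells (337 CPM, 196 to 539) and 15 in these 39 (69.7 CPM, 39.0 to 115). By the mural genes it had 22 of its 38 stromal UMIs in 29 cells with 2 or 3 of them (211 CPM, 132 to 320.0) and 16 in the other 39 (86.0 CPM, 49.2 to 140). Over all kept cells, 145 cells with 2 or 3 of the mural genes held 97 of 151 Cox4i2 UMIs (64.2%) and 174 of 328 Ndufa4l2 UMIs (53.0%). No doublet caller was run on these cells. Shmt2 overlaps Ndufa4l2 on the other strand, while no other gene overlaps Cox4i2 in GENCODE vM21.

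Cox7a1, the heart and skeletal muscle isoform of subunit 7a, was highest in epithelial classes. It had 122 CPM in intercalated cells (66 UMIs, 94.5 to 155), 48.9 in principal cells, 46.5 in the distal convoluted tubule, 29.2 in the thick ascending limb and 26.6 in the proximal tubule. It had 1.85 CPM in endothelial cells and 0 UMIs in fibroblasts and pericytes and in dendritic cells. Monocytes/macrophages had 50 UMIs (7.80 CPM, 5.79 to 10.3), which were 5, 10, 22, 13 and 0 in libraries 1 to 5, and neutrophils had 6.65 CPM (9 of 10 UMIs in library 3), both overlapping injured cells (9.18 CPM, 7.07 to 11.7) in their intervals. The free RNA estimate would give 21.8 of the 50 and 14.7 in neutrophils, which had 10. In endothelial cells, which had 3, it would give 4.64. It would give 3.24 of 66 in intercalated cells, 12.2 of 85 in principal cells and 17.7 of 86 in the thick ascending limb. Free RNA had 60.04 CPM of Cox7a1, below the level of intercalated cells and above that of the other classes named here. Its part in these levels was not tested. The UMIs of intercalated cells were 7, 13, 16, 2 and 28 in libraries 1 to 5, and 37.7% of these cells had at least 1, against 11.3% of proximal tubule and 0.619% of endothelial cells (median depths 7817, 5151 and 2965 UMIs). Of the Cox7a1 and Cox7a2 UMIs together, Cox7a1 made up 7.59% in intercalated cells, 4.15% in principal cells, 2.04% in the proximal tubule, 1.73% in monocytes/macrophages and 1.19% in injured cells. Intercalated cells had the highest level with any 1 library left out, from 82.5 CPM without library 5 to 248 CPM without library 3. Principal cells had 40 of their 85 Cox7a1 UMIs and the distal convoluted tubule 35 of its 52 in library 5, and without that library they had 30.5 CPM (22.2 to 40.8) and 29.55 CPM (17.2 to 47.3), intervals that include the 26.4 CPM of the proximal tubule without it. Without library 3 principal cells had 77.9 CPM. Cox6b2 was found in the proximal tubule (23.0 CPM), injured cells (22.7), intercalated cells (22.2), fibroblasts and pericytes (20.7) and the thick ascending limb (20.03), and lower in endothelial cells (4.92), neutrophils (2.66) and T/NK cells (3.04). The free RNA estimate would give 11.3 Cox6b2 UMIs in neutrophils, which had 4, 3.99 of 6 in T/NK cells and 2.78 of 8 in endothelial cells.

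Cox6a2, the heart and skeletal muscle form of subunit 6a, had 953 UMIs in the proximal tubule (4.17 CPM, 3.91 to 4.44), and 1, 0, 0 and 0 in the thick ascending limb, distal convoluted tubule, principal and intercalated cells. Its UMIs were not spread evenly along the proximal tubule. In 15379 cells with markers of the first segment (S1) it had 768 UMIs (8.47 CPM), and in 4335 cells with markers of the third segment (S3) 13 UMIs (0.370 CPM), a ratio of 22.9 (13.3 to 43.2). Of the 13, 8 were in library 1, and without it the ratio was 39.4 (16.8 to 122), while it was 16.3 to 29.3 without another library. By library the S1 cells had 14.9, 9.17, 6.05, 6.3 and 15.6 CPM and the S3 cells 0.81, 0, 1.29, 0 and 0.319 CPM, so that S1 was higher in all 5, although in library 3, with 1 UMI in 104 S3 cells, the interval of the ratio included 1 (0.833 to 186). The free RNA level of Cox6a2 lay above the S1 level in libraries 2 to 5 and below it in library 1. Whether free RNA bears on the S1 and S3 levels was not tested. A Cox6a2 UMI was seen in 4.21% of S1 and 0.184% of S3 cells, although S3 cells were deeper (median 8600 against 5864 UMIs), and in 0.177% of thick ascending limb cells. Its partner Cox6a1 was level (801 and 781 CPM). Of 88 nuclear members compared between S1 and S3, 3 were 2-fold higher in S1 (15% of all genes were) and 0 were 2-fold lower (5.24% of all genes were), and the median was 0.08 (all genes 0.18). The other 2 were isoform genes as well. Pooled over libraries, Cox6b2 had 27.6 and 9.1 CPM (3.03-fold) and Cox7a1 had 33.8 and 14.3 CPM (2.36-fold). In library 4 both intervals included 1 (0.856-fold, 0.695 to 1.06, and 1.06-fold, 0.853 to 1.33), as did that of Cox7a1 in library 3 (1.53-fold, 0.905 to 2.8). Libraries 3 and 4, where proximal tubule Cox6b2 was highest, held 6542 and 3191 of the S1 cells. They held only 104 and 272 of the S3 cells, so the pooled fold of Cox6b2 mixes segment with library. Itgad overlaps Cox6a2 on the other strand.

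The mitochondrial part was cut by the cell filter, which removed cells above 25% mitochondrial UMIs, and the filter did not touch the classes alike. Of cells gated without the limit, 50.2% of distal convoluted tubule cells, 40.0% of thick ascending limb cells, 26.7% of intercalated and 17.2% of proximal tubule cells lay above it, against 2.12% of injured, 1.52% of endothelial and 1.52% of monocyte/macrophage cells. Without the limit the mitochondrial part was 26.4% in the distal convoluted tubule, 19.5% in the thick ascending limb and 16.3% in the proximal tubule, and the nuclear parts were 10.4%, 7.46% and 6.19%. In proximal tubule cells above the limit were 28.8%, 12.5%, 6.85%, 15.7% and 23.7% of libraries 1 to 5.

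Among proximal tubule cells the nuclear part changed with a cell's mitochondrial share. It was 5.94% in cells with up to 5% mitochondrial UMIs, 5.36% from 5% to 10%, 5.97% from 10% to 15%, 6.81% from 15% to 20%, 7.53% from 20% to 25% and 7.57% from 25% to 40%, and then 6.32% from 40% to 60% and 5.39% above 60%. From the 5% to 10% band to the 20% to 25% band it was higher at each step in all 5 libraries, ending at 7.11%, 8.26%, 7.35%, 7.73% and 7.19% in libraries 1 to 5. Beyond 25% the libraries parted: in the 40% to 60% band libraries 1 and 2 stayed at 7.83% and 8.72%, and libraries 3, 4 and 5 had 5.57%, 5.44% and 6.35%. Free RNA carries both parts (mitochondrial 11.9% to 63.3% and nuclear 5.71% to 10.7%), and its share of these cells was not tested. Median depth in the bands ran from 2641 to 6444 UMIs and was 3885 at 20% to 25%.

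**Figure D5:**
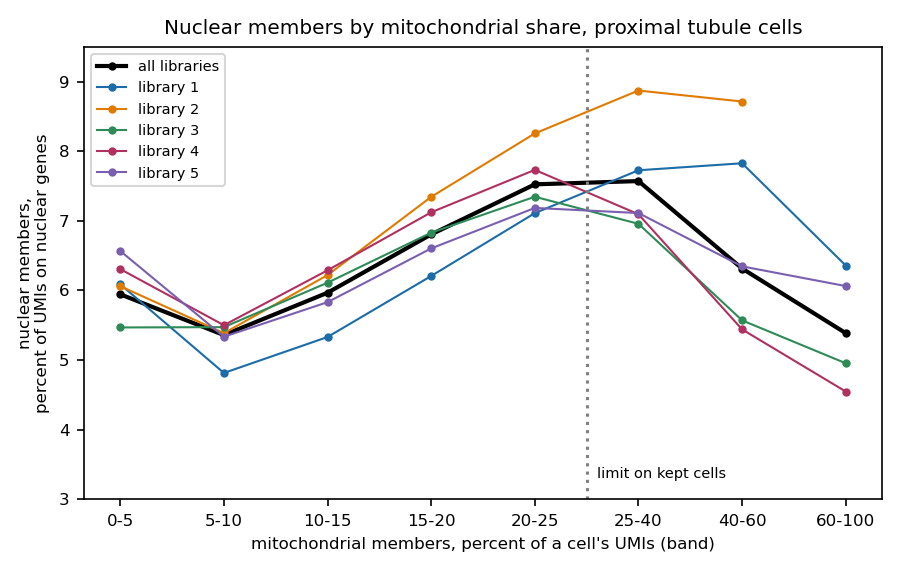
Nuclear part (percent of UMIs on nuclear genes) of proximal tubule cells grouped by their mitochondrial share in bands of unequal width, for all libraries (black) and each library with at least 20 cells in the band. It runs from 5.36% at 5% to 10% to 7.57% at 25% to 40%, and the dotted line marks the limit on kept cells.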

How the data were processed

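Single-cell suspensions of mouse kidney were made with collagenase and hyaluronidase, and libraries were made with the 10x Genomics 3′ kit. Per the file headers and labels, the authors used Cell Ranger 6.0 with the mm10 genome, and 1 unfiltered matrix of raw UMI counts over 5 libraries was deposited, with no map from barcode suffix to sample. Cells were therefore called here. In each library, barcodes passed directly if they reached 10% of the 99th percentile of UMIs among the top 3000, and a second step tested up to 20000 barcodes with at least 500 UMIs against free RNA of barcodes ranked 45000 to 90000 (10000 simulations, adjusted p of 0.01). Of 70475 called barcodes, 517 had fewer than 200 genes and 12665 had over 25% mitochondrial UMIs, some both, and 57759 remained. Each library had 51128618 to 94897860 UMIs in them.

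A cell was given a class from at least 3 of its markers and a score of at least 0.10 (the mean of marker levels, each relative to its 95th percentile), and 1438 cells whose second class scored at least 0.5 of the first were left out as mixed. No doublet caller was run. A further 4828 cells had no class. The score rule and the injured gate (838 cells of it were left unnamed) were set after the data were seen, as were the distal convoluted tubule comparison and the splits by mural or plasmacytoid genes. The members, markers and lists were chosen with earlier results of these data known.

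Shares were given with exact Clopper-Pearson and levels with exact Poisson 95% intervals, and ratios with exact conditional binomial intervals. All cover counting error only. Because the matrix is 1 sample, no test was run. Genes with at least 50 UMIs in both classes together were compared, and called at 2-fold. The genes named were all mitochondrial members, the Sdh genes, the tissue isoforms with their partners, up to 5 highest and 5 lowest nuclear members of each class compared, the 5 with most UMIs, and members or listed genes past 2-fold between proximal tubule libraries or in a class. Ndufb4, Atp5h and the genes of the distal convoluted tubule were added after their values were seen. The values of 1 gene of a list outside the rule are not reported here. On simulated counts the comparison recovered 198 of 200 changed genes among 10180 for monocytes/macrophages and 198 of 200 among 10363 for injured cells. Only genes well covered in the class were changed there, with counting noise alone and no spread between libraries. The simulation thus does not cover calls that rest on few UMIs. Alternatives changed the cell filters, gate, denominator, summary, member list and libraries. Python 3.11.15, numpy 2.4.6, scipy 1.17.1, pandas 2.3.3, numba 0.67.0 and matplotlib 3.10.9 were used, with GENCODE vM21 for positions and RefSeq promoters of GRCm38.p6.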

Additional observations from a re-analysis of the deposited data

How the results depend on the processing

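Across 402 alternative values of the log2 ratios of both parts, 397 kept their sign, and of 306 alternative counts of members called, 255 stayed within 1.5 times. The 5 that reversed were the thick ascending limb mitochondrial ratio without a mitochondrial limit (0.2585) and as a mean over cells (0.08321), its nuclear ratio with barcodes of 2 lineages kept (−0.03154), and the mitochondrial ratios of the distal convoluted tubule (−0.4773) and intercalated cells (−0.03947) at a limit of 10%; the cause was not tested. In the proximal tubule the mitochondrial part was 16.27% without the limit, 7.132% at 10%, 12.44% with at least 500 genes, 12.75% with a stricter gate, 12.42% with barcodes of 2 lineages kept, 12.02% as a mean over cells, 12.76% as a median over libraries and 12.11% to 13.14% with a library left out. Its nuclear part was 6.187%, 5.455%, 6.053%, 6.064%, 6.058%, 6.435%, 6.09% and 5.982% to 6.147% in the same order, and 5.952% with the first calling step only, 5.312% of all UMIs, 6.021% for subunits only and 6.061% without the 8 tissue isoforms. The injured mitochondrial log2 ratio was −1.034 without the limit, −0.394 at 10%, −0.7087 with the first step only, −0.8923 with the stricter gate, −0.548 as a mean over cells, −0.9038 as a median over libraries, −0.6929 for the whole injury gate and −0.9082 to −0.6279 with a library left out. The nuclear ratio was −0.627, −0.5086, −0.5832, −0.7468, −0.5744, −0.6543, −0.6262 and −0.7293 to −0.5198 in the same order, and −0.5217 of all UMIs. For monocytes/macrophages it was −1.275, −1.1, −1.195, −1.348, −1.325 and −1.33 for the first 6 of these, −1.204 with barcodes of 2 lineages kept, −1.118 of all UMIs, −1.524 with free RNA subtracted and −1.455 to −1.125 with a library left out. No paired test was run. Conditions could not be paired because the matrix does not tie libraries to samples, and classes were not paired by library in a test. Ratios between classes within each library are given as values, and the libraries were treated as parts of 1 sample. Classes with few cells, such as dendritic (52) and stromal cells (68), limit the depth of their members.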

Other observations

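Cox6a2 was also found outside the nephron, in cells with genes of plasmacytoid dendritic cells, a split made after the values were seen. The 54 kept cells with a UMI of at least 2 of Siglech, Ccr9 and Runx2 held 164 of all 1220 Cox6a2 UMIs (13.4%), or 634 CPM (541 to 739), against 3.74 CPM in the other 57705 cells. The UMIs of the 54 cells were 10, 40, 40, 38 and 36 in libraries 1 to 5, in 8, 10, 18, 12 and 6 such cells, so that each library had such UMIs. Of the 54 cells 38 had no class (121 UMIs, 775 CPM) and 9 were in the proximal tubule gate (34 UMIs, 424 CPM), and the 9 Cox6a2 UMIs of the B cell gate were all in 1 of them. The common form Cox6a1 had 483 CPM in the 54 cells and 755 CPM in the others. Some Cox6a2 UMIs were in cells with 0 or 1 of these genes outside the nephron gates. Monocytes/macrophages of that kind had 20 UMIs in 14 cells (3.12 CPM, 1.91 to 4.83), an interval that includes the 4.17 CPM of the proximal tubule, and cells of no class had 77 UMIs in 40 cells (6.33 CPM), up to 26 of them in 1 cell and 68 of them in library 3. The monocyte/macrophage UMIs were 4, 12, 1, 3 and 0 in libraries 1 to 5. Without library 2 the level of all monocytes/macrophages was 1.88 CPM, against 3.12 CPM with it. Free RNA had 13.8 CPM of Cox6a2, and by the free RNA estimate 5.26 of these 20 UMIs would be free RNA.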
